A study of Homo sapiens with 6 samples.

Results

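The genes described here are 10 contractile genes of the type that marks smooth muscle: ACTA2, ACTG2, TAGLN, CNN1, CNN2, MYL9, TPM1, TPM2, TPM4 and CALD1. They were taken as a fixed list, each by its Ensembl identifier, from the 58721 genes of the count table. The list was chosen with earlier results of these data known. All 10 genes were found in the count table, on 8 chromosomes. RNA was sequenced from A375, an established human melanoma line, in 3 libraries whose titles name a guide RNA against mCherry and whose genotype is given as wild type (called control), and in 3 libraries with a guide against SOX10, labelled as SOX10 knockout. mCherry is a fluorescent protein gene absent from the human genome, and SOX10 is a transcription factor of the neural crest and its melanocyte and glial descendants. All cells were grown in DMEM with fetal bovine serum. The sources used here do not say where the SOX10 guide cuts, whether the edited cells were cloned or pooled, or whether replicates were separate cultures. The p-values therefore reflect only the spread among these libraries, and that spread may be technical.

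Contractile cells and spreading cells build actin filaments with a shared set of proteins. ACTA2 and ACTG2 encode smooth muscle actins; tropomyosins (TPM genes) lie along the filament; calponins (CNN genes), caldesmon (CALD1) and transgelin (TAGLN, also called SM22) bind it; and MYL9 encodes a regulatory light chain of smooth and non-muscle myosin. Many of these genes are classical targets of serum response factor (SRF), which binds a DNA element called the CArG box. SRF works with coactivators that respond to actin, MRTFA, MRTFB and the muscle-restricted myocardin (MYOCD), or with ternary complex factors of the ETS family that respond to ERK signalling. When actin polymerises, free actin monomers fall and the MRTF proteins enter the nucleus. In melanoma these genes are known mainly from mesenchymal-like, invasive cell states, while ACTA2 and CNN1 are used as markers of smooth muscle and myofibroblasts.

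The CArG box was searched on both strands in the 250 bases before each RefSeq start site (RefSeq, GRCh38.p14), because it is the element that SRF binds. It consists of CC, 6 letters that are each A or T, and GG, 10 letters in all, and reads as the same motif on either strand. Start sites were listed for 8 of the 10 genes, in 15 windows, and the genes without a listed window were TAGLN and MYL9. ACTG2 held 2 boxes, CNN2 held 1 and TPM4 held 1 at the most upstream of its start sites, so 3 of the 15 windows held a box. Of all 35116 windows searched, 407 (1.16%) held a box. The downstream start site of ACTA2 held 2 near matches, in which 1 of the 6 inner letters is G or C, and a window of CALD1 also held such a near match; 5.96% of all windows did. The windows of CNN1, TPM1 and TPM2 held neither a box nor a near match. All matches describe the letters only. The stretches with the boxes of ACTG2, CNN2 and TPM4 and the near matches of ACTA2 are shown 5′ to 3′ on the gene's strand, with the boxes or near matches in capitals, because they hold the matches in the listed windows (CALD1 aside): ACTG2 (chr2:73892758-73892944, plus strand), ACTA2 (chr10:88952774-88953023, minus strand), CNN2 (chr19:1026358-1026580, plus strand) and TPM4 (chr19:16067307-16067506, plus strand).
ACTG2: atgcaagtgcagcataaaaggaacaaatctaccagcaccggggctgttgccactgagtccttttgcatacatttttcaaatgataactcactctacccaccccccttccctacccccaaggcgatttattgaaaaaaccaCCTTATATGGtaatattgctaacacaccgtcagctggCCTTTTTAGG
ACTA2: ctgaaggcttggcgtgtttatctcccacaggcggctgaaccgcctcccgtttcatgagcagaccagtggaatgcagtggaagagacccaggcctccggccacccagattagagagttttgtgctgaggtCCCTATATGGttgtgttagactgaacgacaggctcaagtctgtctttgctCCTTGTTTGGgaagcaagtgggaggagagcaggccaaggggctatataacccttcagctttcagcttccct
CNN2: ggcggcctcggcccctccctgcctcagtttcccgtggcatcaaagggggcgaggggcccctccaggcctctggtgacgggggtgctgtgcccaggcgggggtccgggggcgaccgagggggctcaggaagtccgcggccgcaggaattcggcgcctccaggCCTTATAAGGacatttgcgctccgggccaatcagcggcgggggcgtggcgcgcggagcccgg
TPM4: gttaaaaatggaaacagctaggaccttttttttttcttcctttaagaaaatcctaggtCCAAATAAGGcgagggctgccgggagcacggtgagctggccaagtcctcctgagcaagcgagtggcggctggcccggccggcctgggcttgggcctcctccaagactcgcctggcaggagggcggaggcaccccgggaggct

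Libraries held between 70075002 and 78148565 gene counts, and values are given as CPM, the count scaled to the size of the library with TMM factors. A count of 3, taken as the floor, stood at 0.0382 to 0.0417 CPM; floors and counting intervals cover counting error only. SOX10 itself stood at 223 to 241 CPM in the control libraries and at 41.4 to 47.7 CPM in the knockout libraries, a log2 fold change of -2.36 (SE 0.08; adjusted p = 1.84e-07 in edgeR's quasi-likelihood test with Benjamini-Hochberg adjustment). Among markers of the melanocyte lineage, in control libraries S100B stood at 28.9 to 37.5 CPM and MITF at 55.3 to 59.5 CPM. The pigment markers MLANA and PMEL did not exceed 1.02 and 0.665 CPM there, and TYR had 1 count in all libraries together. Of 19263 genes tested, 5396 (28.0%) had an adjusted p under 0.05, 14.0% higher and 14.0% lower in knockout libraries, with a median log2 fold change of -0.02.

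Knockout libraries held more RNA of the classical smooth muscle genes ACTA2, TAGLN, CNN1 and MYL9 and of the tropomyosins TPM2 and TPM4, and less of TPM1. Of the 10 genes, 9 passed the filter on low counts. Of these, 6 rose, 1 fell, and CNN2 and CALD1 did not pass the test (7 of 9 called, against 28.0% of all tested genes). CNN2 and CALD1 passed as lower with the replicate number as a block, where 4637 of 19263 genes were higher and 5176 lower. The median log2 fold change of the 9 genes was 0.39. The rise was 1.31-fold in the abundant TPM2 and TPM4 and 1.51-fold to 1.83-fold in MYL9, TAGLN and ACTA2, which stood below 8 CPM in every library. In 8 of the 9 tested genes the 2 groups of libraries did not overlap, which was so for 41.6% of all tested genes. In bulk RNA, more cells that express a gene and more RNA per cell cannot be told apart. CNN1 passed the filter only through the knockout libraries, so that it had to differ to be tested at all.

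**Figure D1:**
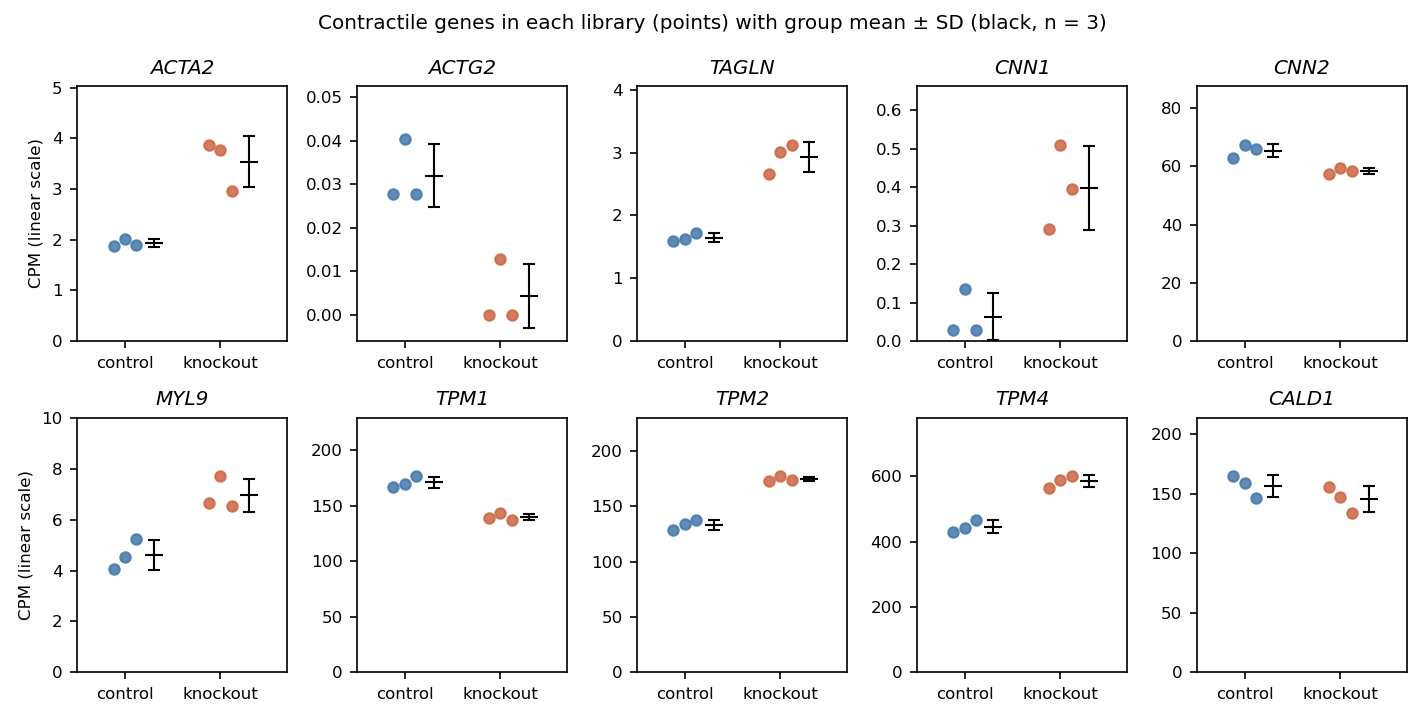
CPM of the 10 contractile genes in each of the 6 libraries, a panel per gene with a linear axis of its own (points, libraries; black, mean ± SD, n = 3 per group). ACTA2, TAGLN, CNN1, MYL9, TPM2 and TPM4 are higher in all knockout libraries than in any control library, TPM1 and CNN2 are lower, CALD1 overlaps, and ACTG2 stays at or under 0.0404 CPM.

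Among the actins, ACTA2, the alpha actin of vascular smooth muscle and of myofibroblasts (ENSG00000107796; GRCh38 chromosome 10, 88935074 to 88991339, minus strand), stood at 1.88, 2.02 and 1.90 CPM in control replicates 1, 2 and 3 and at 3.87, 3.78 and 2.96 CPM in knockout replicates 1, 2 and 3. The lowest knockout library lay above the highest control library. Its mean rose from 1.93 ± 0.0784 to 3.54 ± 0.504 CPM (SD, n = 3), 1.83-fold (log2 fold change 0.87, SE 0.14; adjusted p = 0.00156, edgeR). ACTA2 shares 380 exon bases with the death receptor gene FAS and 516 with the antisense RNA gene ACTA2-AS1, both on the opposite strand, and also spans part of the deubiquitinase gene STAMBPL1 without shared exon bases. All 3 neighbours rose as well. FAS rose from 29.4 ± 3.53 to 69.4 ± 8.69 CPM (log2 fold change 1.24, adjusted p = 6.96e-05). STAMBPL1 rose from 39.7 ± 1.21 to 89.5 ± 0.696 CPM (log2 fold change 1.17, adjusted p = 1.39e-06), and ACTA2-AS1 from 0.252 ± 0.0704 to 0.536 ± 0.166 CPM (log2 fold change 1.08, adjusted p = 0.0459). The sources used here do not state the strand setting of the counting, and the part of these neighbours' reads in the value of ACTA2 was not tested.

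ACTG2, the gamma actin of visceral smooth muscle (ENSG00000163017; chromosome 2, 73892314 to 73919865, plus strand), had 2, 3 and 2 counts in the control libraries and 0, 1 and 0 in the knockout libraries. All of these lie at or under the floor, so no fold is given. ACTG2 did not pass the filter on low counts and was not tested. The striated muscle actins were scarce as well: ACTA1 had at most 2 counts in any library and ACTC1 at most 9. The cytoplasmic actins ACTB and ACTG1, which have nearly the same protein sequence as the muscle actins and with which reads may be shared, were far more abundant. ACTB stood at 3484 ± 206 and 3387 ± 99.6 CPM in control and knockout libraries (adjusted p = 0.700) and ACTG1 at 2412 ± 73.3 and 2629 ± 70.7 CPM (adjusted p = 0.150). Neither gene passed, but ACTG1 passed as higher with total counts as scaling (adjusted p = 0.0456). With the replicate number as a block, ACTG1 passed as higher too (adjusted p = 2.32e-04, edgeR). Per kilobase of exon, ACTA2 made up 0.0361% ± 9.19e-04 of the RNA of the 6 actin genes in control and 0.0645% ± 0.00870 in knockout libraries; with the longest transcript as length the shares were 0.0546% and 0.0979%.

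Among the proteins that bind the filament, TAGLN, an early marker of smooth muscle cells (ENSG00000149591; chromosome 11, 117199321 to 117204782, plus strand), stood at 1.58, 1.63 and 1.72 CPM in control replicates 1, 2 and 3 and at 2.65, 3.01 and 3.12 CPM in knockout replicates 1, 2 and 3. The groups did not overlap. TAGLN rose 1.78-fold, from 1.64 ± 0.0684 to 2.93 ± 0.246 CPM (log2 fold change 0.83, SE 0.12; adjusted p = 0.00105, edgeR). It shares 446 exon bases with PCSK7, a protease gene on the opposite strand, whose mean was 23.2 ± 3.31 CPM in the controls and 22.6 ± 2.89 CPM after SOX10 targeting (adjusted p = 0.842). The other transgelins behaved otherwise: TAGLN2, the widely expressed form, stood at 454 ± 50.4 and 549 ± 35.8 CPM (log2 fold change 0.27, adjusted p = 0.0548) and was not called. TAGLN3, a neuronal form, fell from 2.96 ± 0.457 to 0.900 ± 0.175 CPM (log2 fold change -1.71, SE 0.19, adjusted p = 1.87e-04). TAGLN2 lay close to the threshold and passed it, as higher, with DESeq2 (adjusted p = 0.0243) and with either other filter. It also passed with either other scaling (0.0415 with DESeq2 size factors and 0.0177 with total counts). The same held without control replicate 3 (0.00799) or knockout replicate 1 (0.0377), and with the replicate number as a block.

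Among the calponins, CNN1 rose and CNN3 fell. CNN1, the smooth muscle calponin (ENSG00000130176; chromosome 19, 11538717 to 11550323, plus strand), had 2, 10 and 2 counts in control replicates 1, 2 and 3 and 21, 40 and 31 counts in knockout replicates 1, 2 and 3. Control replicate 2 alone stood above the floor among the controls, and every knockout library lay above it. The 14 control and 92 knockout counts gave a ratio of 6.27 after scaling (95% counting interval 3.55 to 11.9), and CNN1 rose from 0.0634 ± 0.0618 to 0.399 ± 0.110 CPM (log2 fold change 2.61, SE 0.54; adjusted p = 0.00740, edgeR). Without control replicate 2 the log2 fold change was 3.77. CNN2, the calponin of non-muscle cells (ENSG00000064666; chromosome 19, 1026581 to 1039068, plus strand), whose promoter stretch above holds a box, stood at 62.9, 67.5 and 66.0 CPM in control and 57.5, 59.5 and 58.5 CPM in knockout replicates 1, 2 and 3. These groups did not overlap, but CNN2 was not called (log2 fold change -0.16, SE 0.06, adjusted p = 0.0702). With the replicate number as a block, CNN2 passed as lower (adjusted p = 1.99e-04, edgeR). CNN3, the most abundant calponin and not a gene of the list, fell 1.74-fold, from 444 ± 63.0 to 254 ± 33.9 CPM (log2 fold change -0.80, SE 0.12, adjusted p = 0.00148). Per kilobase of exon, the 3 calponin genes summed to 174 ± 22.5 CPM in the controls and to 106 ± 12.1 CPM after SOX10 targeting. The share of CNN2 was 10.4% ± 1.13 and 15.3% ± 1.60 although its CPM was lower in every knockout library. CNN1 held 0.0129% and 0.130% of the calponin RNA.

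MYL9, the regulatory myosin light chain (ENSG00000101335; chromosome 20, 36541484 to 36551447, plus strand), stood at 4.07, 4.53 and 5.23 CPM in control replicates 1, 2 and 3 and at 6.64, 7.70 and 6.53 CPM in knockout replicates 1, 2 and 3. The groups did not overlap, with knockout replicate 3 the lowest of its group. MYL9 rose 1.51-fold, from 4.61 ± 0.581 to 6.95 ± 0.646 CPM (log2 fold change 0.59, SE 0.12; adjusted p = 0.00587, edgeR). The other regulatory light chains, MYL12A and MYL12B, are near copies of MYL9 with which reads may be shared, and stood at 123 ± 13.8 and 140 ± 13.9 CPM (MYL12A, adjusted p = 0.209) and at 243 ± 40.5 and 252 ± 37.5 CPM (MYL12B, adjusted p = 0.840) in control and knockout libraries. The essential light chain genes MYL6 (log2 fold change 0.27, adjusted p = 0.207) and MYL6B (log2 fold change 0.01, adjusted p = 0.961) did not pass either. Without control replicate 3, MYL6 (adjusted p = 0.0184) and MYL12A (adjusted p = 0.0455) passed as higher. With the replicate number as a block, MYL6 and MYL12A passed as higher too (adjusted p = 9.46e-08 and 7.14e-06, edgeR). MYL9 made up 0.705% ± 0.0217 of the RNA of these 5 light chain genes per kilobase of exon in control and 0.983% ± 0.158 in knockout libraries; with the longest transcript as length the shares were 0.336% and 0.461%.

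The tropomyosins are the abundant genes of the group, and they divided. TPM4, a non-muscle tropomyosin (ENSG00000167460; chromosome 19, 16067021 to 16103005, plus strand), stood at 430.5, 441 and 467 CPM in control replicates 1, 2 and 3 and at 564, 589 and 599.7 CPM in knockout replicates 1, 2 and 3. TPM2, the beta tropomyosin of muscle (ENSG00000198467; chromosome 9, 35681992 to 35690121, minus strand), stood at 129, 134 and 137 CPM and at 173, 177 and 174 CPM in the same order. In both genes all knockout libraries lay above all control libraries, and both rose 1.31-fold: TPM4 from 446 ± 19.0 to 584 ± 18.3 CPM (log2 fold change 0.39, SE 0.06; adjusted p = 0.00148, edgeR) and TPM2 from 133 ± 4.46 to 175 ± 2.11 CPM (log2 fold change 0.39, SE 0.06, adjusted p = 9.28e-04). TPM1, the alpha tropomyosin, whose transcripts are spliced differently in muscle and non-muscle cells (ENSG00000140416; chromosome 15, 63042632 to 63071915, plus strand), stood at 166, 169.5 and 176 CPM in control and 139, 143 and 137 CPM in knockout replicates 1, 2 and 3. It fell 1.22-fold, from 171 ± 5.00 to 140 ± 2.92 CPM (log2 fold change -0.29, SE 0.06, adjusted p = 0.00473), with no overlap of the groups. TPM3, not a gene of the list, stood at 1130 ± 77.1 and 1056 ± 59.2 CPM and did not pass (adjusted p = 0.381).

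Per kilobase of exon, TPM4 made up 21.5% ± 0.281 of the tropomyosin RNA in control and 26.2% ± 0.139 in knockout libraries. Here TPM2 made up 17.1% ± 0.415 and 20.9% ± 0.684, TPM1 5.51% ± 0.138 and 4.20% ± 0.178, and TPM3 55.9% ± 0.773 and 48.7% ± 0.987. The share of TPM4 or of TPM2 was higher, and that of TPM1 or of TPM3 lower, in every knockout library than in any control library. Their sum stood at 241 ± 13.1 and 258 ± 9.44 CPM per kilobase. The table counts genes, not transcripts, so a switch between muscle and non-muscle transcripts of TPM1, TPM2 or CALD1 could not be seen. Genes on the opposite strand that overlap the tropomyosins were scarce: TPM1-AS, which shares 2070 exon bases with TPM1, had at most 12 counts in a library, and ENSG00000279198, which shares 829 with TPM4, had at most 25.

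**Figure D2:**
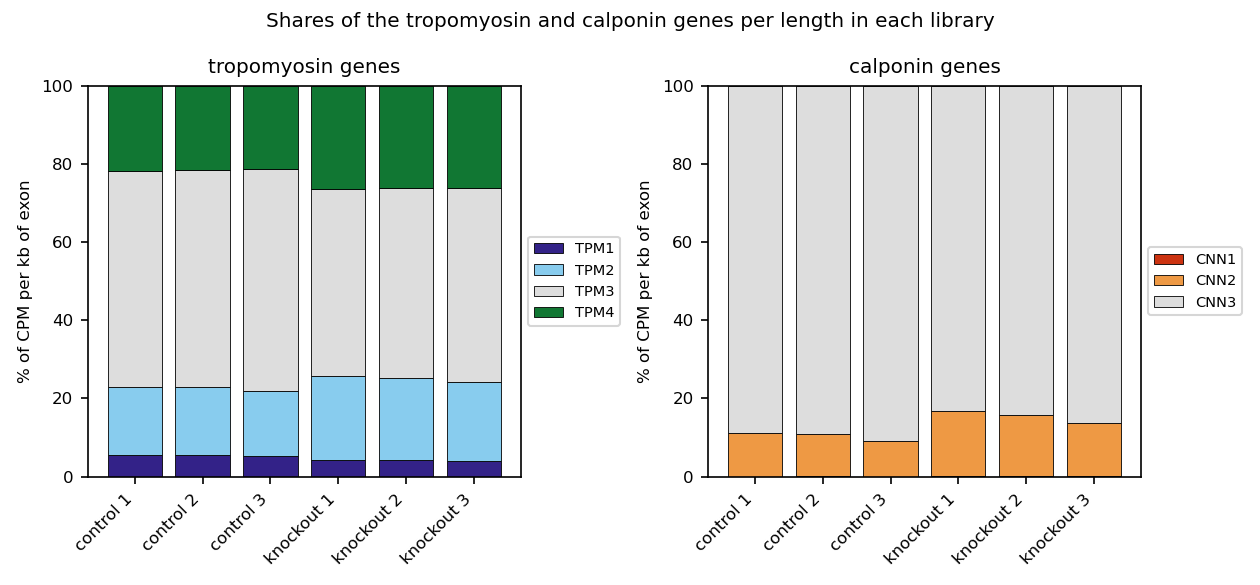
Share of each gene in the summed CPM per kilobase of exon of the 4 tropomyosin genes (left) and the 3 calponin genes (right), a stacked bar per library, in percent. TPM4 rises from 21.5% to 26.2% and CNN2 from 10.4% to 15.3% of its family, and CNN1 is too scarce to be seen.

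CALD1, which encodes caldesmon, a protein that links actin, myosin and tropomyosin (ENSG00000122786; chromosome 7, 134744252 to 134970728, plus strand), stood at 165, 159 and 146 CPM in control replicates 1, 2 and 3 and at 156, 148 and 134 CPM in knockout replicates 1, 2 and 3. The groups overlapped, and CALD1 was not called (157 ± 9.51 and 146 ± 11.2 CPM, log2 fold change -0.10, SE 0.08, adjusted p = 0.379, edgeR). With the replicate number as a block, CALD1 passed as lower (log2 fold change -0.10, adjusted p = 0.00282, edgeR).

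Compared with each other per kilobase of exon, the 10 genes stood in the same order in both groups. TPM4 led with 51.7 ± 2.20 CPM per kilobase in control and 67.7 ± 2.12 in knockout libraries, followed by TPM2 with 41.1 ± 1.37 and 53.8 ± 0.649. CNN2 (17.96 ± 0.631 and 16.05 ± 0.271), CALD1 (15.9 ± 0.966 and 14.8 ± 1.14) and TPM1 (13.3 ± 0.388 and 10.8 ± 0.227) came next. MYL9 (1.63 ± 0.206 and 2.47 ± 0.229), ACTA2 (0.649 ± 0.0263 and 1.19 ± 0.169), TAGLN (0.420 ± 0.0175 and 0.748 ± 0.0628), CNN1 (0.0220 ± 0.0214 and 0.138 ± 0.0379) and ACTG2 (0.00839 ± 0.00192 and 0.00112 ± 0.00193) closed the order. The libraries of neighbouring genes overlapped for CNN2 and CALD1 in the knockout group and for CNN1 and ACTG2 in the control group; the other neighbours were apart. With the longest transcript as length in place of all exons, TPM1 (43.2 and 35.3), CALD1 (36.6 and 34.0) and CNN2 (28.9 and 25.8 CPM per kilobase in control and knockout libraries) stood in the reverse order. With that length ACTA2 (1.43 and 2.62) stood below MYL9 (1.63 and 2.47 CPM per kilobase) in control but above it in knockout libraries. The order of these 5 genes thus depends on the length used, and the groups no longer share one order.

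**Figure D3:**
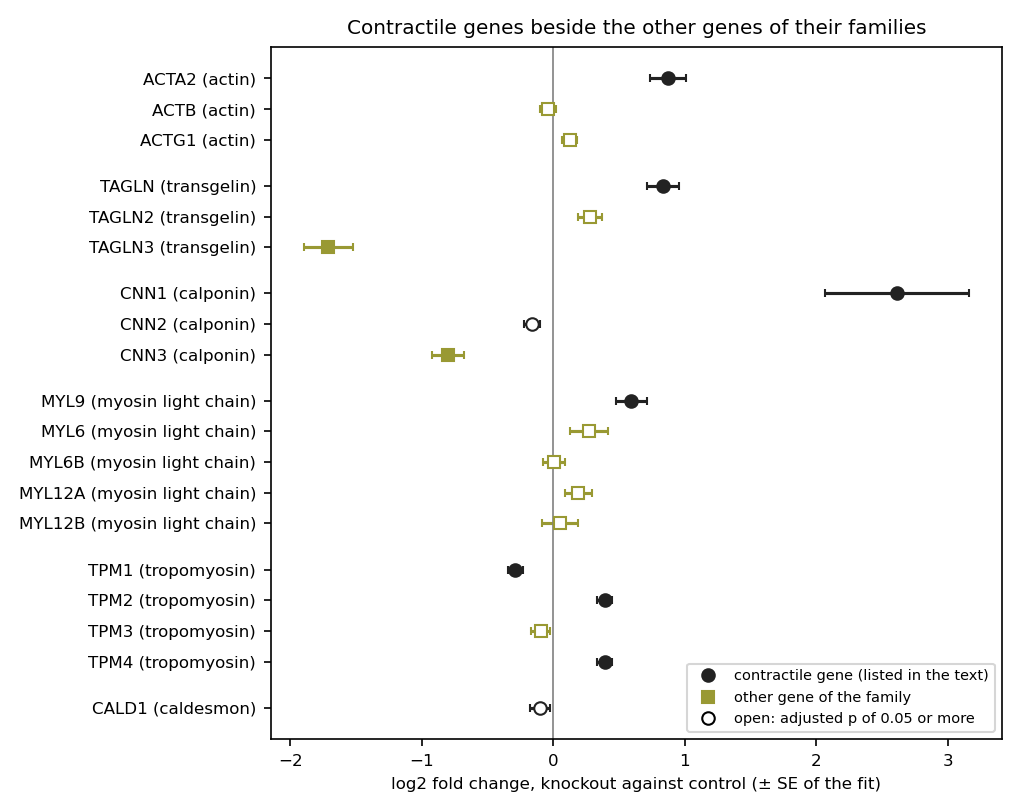
Log2 fold change of knockout against control (points, with bars of 1 SE of the edgeR fit) for the 9 tested contractile genes (circles) and the other tested genes of their families (squares). Filled symbols passed an adjusted p of 0.05; CNN1 at 2.61 has the widest bar, and TAGLN3 at -1.71 and CNN3 at -0.80 lie on the other side of 0.

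The regulators above these genes were examined next, from a list of 24 genes of SRF, its partners and regulators of actin. Of these, 23 were tested, 3 rose and 6 fell (median log2 fold change -0.06). Of all tested genes, 14.0% rose and 14.0% fell. SRF fell slightly, from 34.9 ± 1.59 to 29.6 ± 1.48 CPM (log2 fold change -0.24, SE 0.07; adjusted p = 0.0298, edgeR). That call is close to the threshold: the adjusted p was 0.0884 with total counts as scaling, 0.0591 without a filter, 0.114 and 0.110 without control replicate 1 or 2, and 0.0814, 0.0683 and 0.0989 without knockout replicate 1, 2 or 3. MRTFA stood at 10.4 ± 0.790 and 10.0 ± 0.691 CPM (adjusted p = 0.692) and MRTFB at 33.2 ± 4.93 and 30.4 ± 5.52 CPM (adjusted p = 0.597). MYOCD, the coactivator of smooth and heart muscle, had 1, 0 and 0 counts in control replicates 1, 2 and 3 and 13, 18 and 31 counts in knockout replicates 1, 2 and 3. Its knockout libraries all lay above the floor and its control libraries all below it. The ratio of 62 to 1 counts was 59.2 after scaling, with a wide 95% counting interval of 10.2 to 2374. The mean reached in knockout libraries was 0.268 ± 0.112 CPM. MYOCD rose (adjusted p = 0.00110, edgeR), but passed the filter only through the knockout libraries.

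Among the other genes of that list, STARD13 fell 1.77-fold, from 42.7 ± 2.76 to 24.1 ± 1.64 CPM (log2 fold change -0.83, edgeR adjusted p = 7.90e-05). DIAPH2, a formin gene, fell 1.68-fold, from 33.2 ± 0.468 to 19.7 ± 1.32 CPM (log2 fold change -0.75, adjusted p = 6.76e-05). LIMK1, a kinase that inactivates cofilin, rose 1.24-fold, from 31.7 ± 1.25 to 39.3 ± 2.17 CPM (adjusted p = 0.00904; 0.0530 without knockout replicate 2). The other genes of the list that passed were CFL2, higher, and ROCK2, ARHGEF2 and ELK3, lower; they were named after their values were seen. RHOA, at 747 ± 58.4 and 652 ± 29.1 CPM, did not pass (adjusted p = 0.0846).

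Other cytoskeletal target genes of SRF and the MRTF proteins were listed as well. Of 22 listed (ACTB and ACTG1 among them), 21 were tested, 13 rose and 1 fell, with a median log2 fold change of 0.33. The share over all tested genes was 14.0% higher and 14.0% lower. This list, like the others, was chosen with earlier results of these data known, so its count is a description only. ANKRD1, a muscle ankyrin repeat protein that YAP also controls, rose 3.93-fold, from 27.8 ± 3.66 to 109 ± 8.24 CPM (log2 fold change 1.97, SE 0.11; adjusted p = 2.45e-06, edgeR). FHL1, a LIM domain protein of muscle, rose 2.98-fold, from 8.41 ± 0.183 to 25.1 ± 0.734 CPM (log2 fold change 1.58, adjusted p = 6.39e-07). VCL, the gene of the adhesion protein vinculin, rose 2.08-fold, from 151 ± 12.3 to 314 ± 19.1 CPM (adjusted p = 1.88e-05; chosen after its values were seen). ACTN1, the gene of the actin crosslinker alpha-actinin, fell 1.28-fold, from 320 ± 29.5 to 249 ± 19.0 CPM (log2 fold change -0.36, adjusted p = 0.0153). The call of ACTN1 was lost without control replicate 1 (adjusted p = 0.0557) or 2 (0.0705) or knockout replicate 2 (0.0693) or 3 (0.0519). Several genes of this list, such as CCN1, CCN2 and AMOTL2, are also targets of YAP and TEAD, so the list is not specific to SRF.

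The immediate early genes, many of which SRF drives with ternary complex factors after ERK activation, were mixed. Of 12 listed, 10 were tested, 2 rose and 4 fell (median log2 fold change -0.32), beside 14.0% higher and 14.0% lower among all tested genes. This list is not specific to SRF either. EGR3, a zinc finger transcription factor, fell 13.3-fold, from 11.0 ± 1.66 to 0.825 ± 0.232 CPM (log2 fold change -3.73, SE 0.20; adjusted p = 2.32e-06, edgeR). NR4A1, an orphan nuclear receptor, fell 7.53-fold, from 24.6 ± 1.96 to 3.26 ± 0.115 CPM (log2 fold change -2.91, adjusted p = 1.48e-07). FOS and FOSB were the other genes that fell. ATF3, a stress-induced transcription factor, rose 2.54-fold, from 6.53 ± 1.29 to 16.6 ± 1.15 CPM (adjusted p = 1.32e-04), and ARC 2.02-fold, from 0.427 ± 0.0664 to 0.862 ± 0.0431 CPM (adjusted p = 0.00615).

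**Figure D4:**
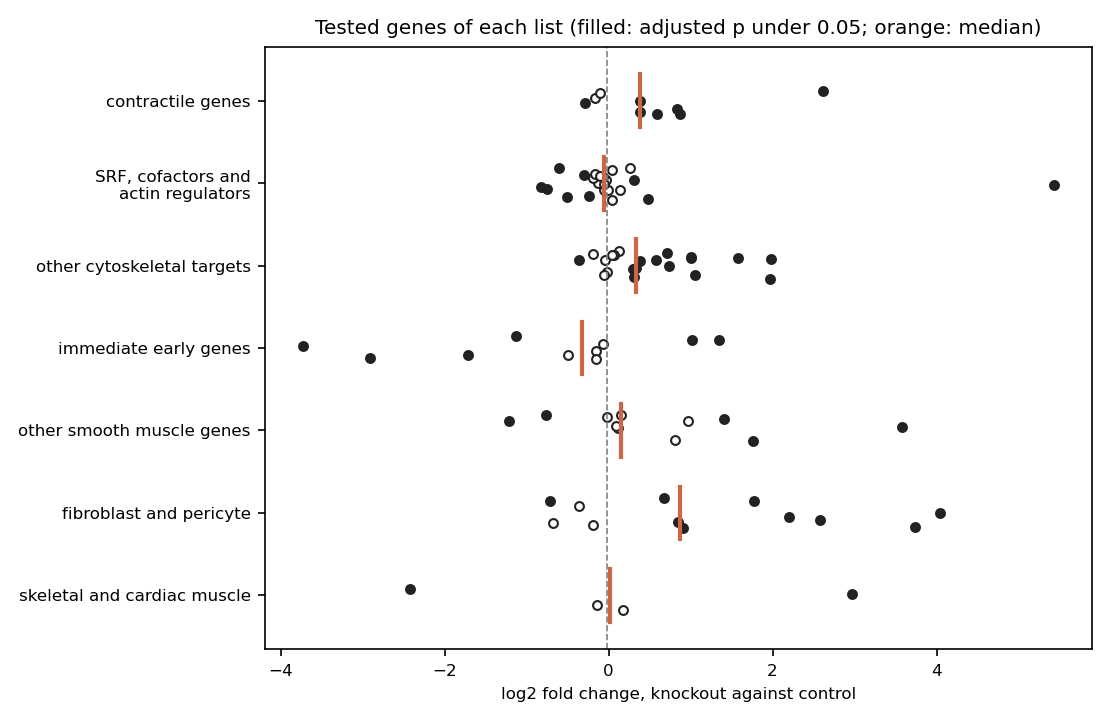
Log2 fold change of knockout against control for every tested gene of 7 gene lists (points; filled, adjusted p under 0.05; orange lines, list medians; dashed line, median of all tested genes at -0.02). The contractile list has its median at 0.39, the other cytoskeletal targets at 0.33, the immediate early genes at -0.32, and MYOCD is the point farthest to the right in the list of regulators.

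Further genes of smooth muscle were mixed: of 14 listed, 11 were tested, 3 rose and 2 fell (median log2 fold change 0.15). Among all tested genes, 14.0% rose and 14.0% fell. MYLK, the myosin light chain kinase that phosphorylates the product of MYL9, rose 3.40-fold, from 17.7 ± 0.518 to 60.3 ± 5.48 CPM (log2 fold change 1.77, SE 0.08; adjusted p = 9.86e-07, edgeR). ITGA8, an integrin of smooth muscle and mesenchymal cells, rose from 0.0548 ± 0.0363 to 0.675 ± 0.0778 CPM (adjusted p = 2.81e-04) and passed the filter only through the knockout libraries. The third gene that rose was SYNPO2, which encodes an actin-binding protein of muscle (from 0.197 ± 0.0223 to 0.525 ± 0.107 CPM, adjusted p = 0.00572; chosen after its values were seen). SYNM, an intermediate filament protein gene, fell from 51.3 ± 13.0 to 30.2 ± 5.81 CPM (adjusted p = 0.0193). SYNM lost its call without control replicate 1 (adjusted p = 0.0532) or 2 (0.0654) or knockout replicate 2 (0.0819) or 3 (0.0622). The defining marker of mature smooth muscle, the myosin heavy chain MYH11, stood at 0.527 ± 0.106 and 0.572 ± 0.135 CPM (adjusted p = 0.795), and DES and KCNMB1 had at most 10 and 1 counts in any library.

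Markers of other mesenchymal cells moved in the same libraries. Of 12 fibroblast and pericyte markers, all tested, 8 rose and 1 fell (median log2 fold change 0.88), beside 14.0% higher and 14.0% lower among all tested genes. Of the 8 that rose, 4 (COL1A2, COL3A1, POSTN and THY1) passed the low-count filter only through the knockout libraries, so the count and the median rest partly on genes that had to differ to be tested. The summed level of the list lay at 23.1 to 26.3 CPM in control and 34.6 to 35.8 CPM in knockout libraries. POSTN, a matrix protein of fibroblasts, rose from 0.120 ± 0.0705 to 1.98 ± 0.0917 CPM (adjusted p = 1.88e-05). FAP rose from 0.353 ± 0.0567 to 2.11 ± 0.340 CPM (adjusted p = 2.88e-05), and PDGFRA fell from 1.54 ± 0.174 to 0.938 ± 0.237 CPM (adjusted p = 0.0329). The collagen genes COL1A2 and COL3A1 had at most 8 counts in a control library and at most 31 in a knockout library. The number of these markers that rose was 5 without control replicate 1 or knockout replicate 1 and 5 when at least 1 CPM was required in 3 libraries. The fall of PDGFRA lost its call without control replicate 1 or 2 or knockout replicate 2 or 3 (adjusted p of 0.0961 to 0.116) and with total counts as scaling (0.05004). Of 12 markers of skeletal and heart muscle, 4 were tested. TNNT2 rose (through the knockout libraries alone past the filter, from 0.0459 ± 0.0214 to 0.371 ± 0.0243 CPM, adjusted p = 5.43e-04), and ACTN2 fell (from 0.755 ± 0.245 to 0.139 ± 0.0365 CPM, adjusted p = 0.00125). The defining factors of skeletal muscle MYOD1, MYOG and MYF5 had 0 counts in every library. The summed level of this list was 2.27 to 3.60 CPM in control and 2.13 to 2.93 CPM in knockout libraries. The part of other cell types in the rise of ACTA2, TAGLN, CNN1 and MYL9 was not tested.

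The genes most like MYL9, the gene of the list with the largest fold change among those with a mean of at least 5 CPM, were sought among 10863 others by the distance between centred log2 CPM profiles over the 6 libraries. The nearest were IGFBP6, an insulin-like growth factor binding protein gene (root mean square distance 0.05 on the log2 scale; 24.0 ± 1.80 and 35.2 ± 2.35 CPM), ITGB1P1, an integrin pseudogene (0.06; 5.14 ± 0.321 and 7.50 ± 0.515 CPM), and GADD45B, a stress response gene (0.06; 8.45 ± 0.545 and 13.0 ± 1.12 CPM). All 3 share with MYL9 the step between the groups, which follows from choosing them by this distance.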

How the data were processed

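RNA was measured in 3 control and 3 SOX10 knockout libraries of A375 cells, each put in its group by its title. Per the labels' protocols, total RNA was isolated on columns and a stranded mRNA library kit was used. The authors deposited raw read counts per Ensembl gene, a column per library; HISAT2, HTSeq and build hg38 are named in the submitters' processing notes, but versions, annotation release and strand setting were not given in the sources used here. All 58721 identifiers were found in GENCODE release 29 (GRCh38), which gave coordinates, exon lengths (union of exons) and overlaps.

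Counts were fitted over the whole table with edgeR 4.0.16 in R 4.3.3: filterByExpr, TMM scaling, the quasi-likelihood test (two-sided, no covariates), Benjamini-Hochberg adjustment over all tested genes and a threshold of 0.05. SE were derived from the same fit, folds are ratios of mean CPM, and counting intervals are exact binomial. Within groups, libraries differed beyond sampling noise. Alternatives were DESeq2 1.42.0, limma-voom (limma 3.58.1), other scalings and filters, the replicate number as a block, and leaving out each library. The procedure was tested on simulated counts, drawn without the differences along exon length seen between these libraries. It called 68.2%, 81.8% and 98.5% of the genes changed 1.5-fold, 2-fold and 4-fold, with 15 false among 179 calls. Smaller folds were not simulated.

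The members and gene lists were chosen with earlier results of these data known. Named genes were the 10 members, SOX10, their family genes, SRF, MRTFA, MRTFB and MYOCD, overlapping genes, the 2 genes with the smallest p in each direction of each list, and the 3 genes nearest to MYL9; the text marks further named genes as picked afterwards or names them only as list members. Of the melanocyte list, genes were used only to check the labels. A gene that the rule takes is left out of the text.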

Additional observations from a re-analysis of the deposited data

How the results depend on the processing

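The 9 tested contractile genes kept their direction in all alternatives that gave a value, and ACTA2, TAGLN, CNN1, MYL9, TPM1, TPM2 and TPM4 kept their call (CNN1 has no value when at least 1 CPM is required in 3 libraries). The shared replicate numbers were not taken as pairs, because the sources used here do not say that they mark pairs. Deviations from the group mean correlated with r = 0.55, 0.02 and 0.59 between same-numbered control and knockout libraries. Between replicates 1 and 3 of opposite groups r was -0.55 and -0.58. Replicate 2 of either group correlated weakly with every library of the other group (r of -0.17 to 0.15), so its value cannot decide whether the numbers mark pairs. With the replicate block 4637 genes were higher and 5176 lower, 3 contractile genes were lower (CNN2 and CALD1 joined TPM1), 5 SRF regulators were higher and 10 lower, 2 cytoskeletal targets and 7 immediate early genes were lower, 4 family genes were higher (ACTG1, TAGLN2, MYL6 and MYL12A, adjusted p = 2.32e-04, 2.07e-08, 9.46e-08 and 7.14e-06), and 3 fibroblast markers were lower. DESeq2 called 2 cytoskeletal targets lower and 1 family gene higher, as did the fit without a filter; DESeq2 size factors called 1 family gene higher; total counts called 2 family genes (TAGLN2 and ACTG1) higher and 0 fibroblast markers lower. With at least 1 CPM in 3 libraries, where fewer genes are tested, 1 immediate early gene, 1 smooth muscle gene, 1 family gene, 5 fibroblast markers and 1 melanocyte marker were higher, and 0 striated muscle markers were higher or lower. With libraries left out, genes lower in all ranged from 1794 (without knockout replicate 2) to 2958, cytoskeletal targets lower from 0 (without control replicate 2 or knockout replicate 2 or 3) to 2 (without knockout replicate 1), fibroblast markers higher from 5 to 8 and lower from 0 (without control replicate 2 or knockout replicate 2 or 3) to 2 (without control replicate 3), family genes higher from 0 to 3 (without control replicate 3), smooth muscle genes lower from 1 (without control replicate 1 or 2 or knockout replicate 2 or 3) to 2, melanocyte markers higher from 1 (without control replicate 1 or 3 or knockout replicate 1) to 2 and SRF regulators higher from 1 (without knockout replicate 2) to 3; the cause was not tested. With total counts 58.5% of all calls were higher, against 49.9%. Log2 fold changes near 0 that were not called changed sign: ACTB (0.000912 with total counts) and, with libraries left out, ACTB (-0.075 to 0.000279), MRTFA (-0.0922 to 0.0151), MRTFB (-0.243 to 0.00800), MYL12B (-0.0728 to 0.186) and MYL6B (-0.0513 to 0.0622). Of these, MRTFB was called lower with the replicate block. With the longest transcript as length, the shares in control and knockout libraries were 7.84% and 5.93% (TPM1), 15.3% and 18.6% (TPM2), 50.7% and 43.9% (TPM3), 26.1% and 31.6% (TPM4), 12.5% and 18.1% (CNN2), 87.5% and 81.7% (CNN3), 0.0546% and 0.0979% (ACTA2) and 0.336% and 0.461% (MYL9). Counts of at most 10 limit CNN1 and MYOCD in control libraries and ACTG2 in all.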

Other observations

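Libraries of the same group differed along exon length (the union of a gene's exons). FLNA, the gene of filamin A, stood at 996, 913 and 756 CPM in control replicates 1, 2 and 3 and at 997, 866 and 763 CPM in knockout replicates 1, 2 and 3, and MYH9, the non-muscle myosin heavy chain gene, at 279, 240 and 188 CPM and at 287, 247 and 206 CPM. Across the 10869 genes whose mean reached 5 CPM, the difference in log2 CPM between 2 libraries of a group correlated with log2 exon length with r between -0.51 and -0.38 in the 6 pairs, where genes share libraries and are not independent. The difference between the group means correlated with it with r = -0.04. FLNA (adjusted p = 0.924) and MYH9 (adjusted p = 0.803) did not pass the test in edgeR; both were chosen after their values were seen. The part of length in the values of single genes was not tested, and the contractile genes with the longest exon unions differed. TPM1 (12876 bases) stood at 166, 169.5 and 176 CPM in control replicates 1, 2 and 3, the other way from FLNA and MYH9. In knockout replicates 1, 2 and 3 TPM1 stood at 139, 143 and 137 CPM. CALD1 (9843 bases) fell from replicate 1 to replicate 3 in both groups, as FLNA and MYH9 did. TPM4 (8632 bases) rose from replicate 1 to replicate 3 in both groups.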
